A study of Homo sapiens with 6 samples.

Results

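The genes described here encode the proteins of the cytosolic ribosome, the particle that translates messenger RNA outside the mitochondria. They were taken by name, as the protein-coding genes whose symbol is RPL or RPS with a number (and a letter or paralogue suffix), RPLP0 to RPLP2, or RPSA. The rule found 86 genes among 58037, of which 52 carry large subunit names and 34 carry small subunit names. They were measured by RNA-seq in HepaRG, a human cell line that the labels list as hepatocellular carcinoma cells and that differentiates into hepatocyte-like and biliary-like cells. The 3 fatty acid samples were differentiated HepaRG cells kept for 72 h with 0.5 mM palmitate and oleate, mixed 1 part to 2 parts and bound to bovine serum albumin. The 3 control samples were differentiated cells of the same line kept for 72 h with 0.02% bovine serum albumin and no added fatty acid. Before treatment, cells of both groups had been through the same growth and differentiation phases and a period in medium with insulin and hydrocortisone. All samples come from a single line, and the labels leave unsaid whether replicates were separate cultures. Every p-value below therefore reflects the variation among these 6 samples, part or all of which may be technical.

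Ribosomal proteins fall into a large subunit, which forms peptide bonds and carries the stalk proteins RPLP0, RPLP1 and RPLP2, and a small subunit, which reads the message. Their mRNAs are among the most abundant in most cells. Many begin with a C followed by a run of pyrimidines, the terminal oligopyrimidine tract, through which mTORC1 signalling and the RNA-binding protein LARP1 control their translation. In liver, as elsewhere, the supply of ribosomes follows nutrients and growth signals. A few genes have paralogues with a narrower expression, such as RPL3L in muscle and RPL10L and RPL39L in testis, and others, such as RPL22L1 and RPS27L, that are expressed together with their partner.

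The start of the transcript is shown for a few members, because most of these genes share the tract there and some paralogues lack it. The sequences are those of RefSeq on GRCh38.p14, read 5′ to 3′ on the transcript's strand, from 10 bases before the listed start to 20 bases from it. Capitals mark the tract, a C at the start followed by at least 4 bases that are C or T. The search was made on the transcript's strand at the listed starts only.
RPL22L1: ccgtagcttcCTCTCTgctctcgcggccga
RPL22: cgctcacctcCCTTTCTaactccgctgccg
RPL21: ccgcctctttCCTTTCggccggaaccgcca
RPS24: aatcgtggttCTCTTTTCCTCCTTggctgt
RPL26: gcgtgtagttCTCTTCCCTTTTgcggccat
RPL26L1: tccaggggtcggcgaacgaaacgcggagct
RPS27: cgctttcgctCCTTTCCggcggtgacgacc
RPS27L: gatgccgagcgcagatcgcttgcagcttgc
RPL7L1: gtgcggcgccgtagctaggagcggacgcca
RPL22L1 and its partner RPL22 both begin with such a run, whereas RPL26L1 and RPS27L have none at the listed start, unlike RPL26 and RPS27. The windows lie at chr3:170870176-170870205 for RPL22L1, chr1:6199576-6199605 for RPL22, chr13:27251548-27251577 for RPL21 and chr10:78033853-78033882 for RPS24. Those of the other genes lie at chr17:8383174-8383203 for RPL26, chr5:172958719-172958748 for RPL26L1, chr1:153990752-153990781 for RPS27, chr15:63157458-63157487 for RPS27L and chr6:42879606-42879635 for RPL7L1. RPL22L1, RPL22, RPL26 and RPS27L are on the minus strand and the other genes are on the plus strand. A listed start was found for 69 of the 86 members, and 48 of these (69.6%) had a tract at 1 of their listed starts or more. Among all 27305 genes of the RefSeq table the share was 5.14%. No tract at a listed start says only that these letters are not at that position.

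Expression was read as FPKM, a gene's fragments divided by its length in kilobases and by the library's assigned reads in M, as the authors deposited it. The reads behind the values came to 8.36 to 15.94 M in the fatty acid libraries and 6.33 to 11.82 M in the control libraries. Mitochondrially encoded genes took 9.15% to 11.9% of the reads of the fatty acid libraries and 12.2% to 15.0% of those of the control libraries. A smaller mitochondrial share raises the FPKM of every other gene, so results are given both as deposited and after scaling to the reads of genes not on chrM, called here the non-mitochondrial scale. A value with ± is the mean and SD of the 3 libraries of a group unless it is a log2 fold change, which is fatty acid minus control on the log2(FPKM + 0.5) scale and carries its SE. A gene was tested when its mean over the 6 libraries was at least 0.5 FPKM, and it was called at an adjusted p under 0.05 (limma, Benjamini-Hochberg over 14661 genes).

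Ribosomal protein genes were among the most highly expressed genes of HepaRG cells. Of the 86 members, 82 had a mean of at least 0.5 FPKM. The mean FPKM of these 82 ran from 0.806 to 658 with a median of 116.9, at the 98.4th percentile of all genes tested, and 79 of them were above 10 FPKM and 49 above 100 FPKM. The highest mean levels belonged to RPL13A (658 FPKM), RPS2 (575 FPKM), RPS12 (506 FPKM), RPS27 (468 FPKM), RPS6 (455 FPKM) and RPL19 (438 FPKM). RPL13A is a large subunit protein also known from translational silencing of inflammatory mRNAs, and RPS6 is the small subunit protein phosphorylated by S6 kinases. The lowest mean levels among the tested members were those of RPL10L (0.806 FPKM), RPL36A (0.960 FPKM), RPL17 (7.93 FPKM), RPL7L1 (15.0 FPKM), RPS27L (15.5 FPKM) and RPL26L1 (16.3 FPKM), 4 of them paralogues. Of the other 4 members, RPS4Y1 and RPS4Y2, both on chromosome Y, were listed at 0 in all 6 libraries, so no comparison was possible. RPL3L had 1 read in all and RPL39L had 3, so no difference between groups was detectable for these genes at this depth. The gene lengths behind the FPKM run over all annotated exons, with a median of 2898.5 bases over members against a median coding length of 475.5 bases. RPL17 and RPL36A also overlap readthrough genes on the same strand, so their levels against other genes are uncertain, while the comparison between groups uses the same length for both.

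Several ribosomal protein mRNAs were slightly more abundant with fatty acid, and none was called lower. As deposited, 11 of the 82 tested members (13.4%) were called higher and 0 lower, against 8.22% called higher and 4.68% called lower among all genes tested. At an unadjusted p under 0.05 there were 32 members higher (39.0%) and 0 lower, against 19.1% and 11.4% of all genes. After adjustment, limma voom on the reads recovered from the FPKM called 27 higher and 0 lower, against 12.6% and 7.88% of all genes. After rescaling to TPM, 38 members were called higher and 0 lower, against 17.8% and 2.78%. That rescaling moved all genes up, to a median log2 fold change of 0.18. The median log2 fold change of the 82 as deposited was 0.13, a fold of 1.10, against 0.044 over all genes tested. Of the 82, 71 (86.6%) were above 0, against 57.2% of all genes. In 38 members (46.3%) the 3 fatty acid libraries lay above the 3 control libraries without overlap, against 23.7% of all genes, and in 0 members they lay below, against 13.3%. On the non-mitochondrial scale the median was 0.079, against -0.0028 over all genes, and 66 members (80.5%) were above 0, against 49.5%. On that scale a single member, RPL22L1, was called higher and 0 lower, against 4.82% and 5.65% of all genes, and the calls over all genes turned from 1205 higher and 686 lower to 706 higher and 828 lower. In bulk RNA, a change in the mix of cells and a change in RNA per cell cannot be told apart. The count of members called higher was 0 without fatty acid replicate 1 or 2, 1 without fatty acid replicate 3, and 6, 2 and 4 without control replicates 1, 2 and 3, while the share of all genes called higher ran from 1.57% to 7.54% over these fits.

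**Figure D1:**
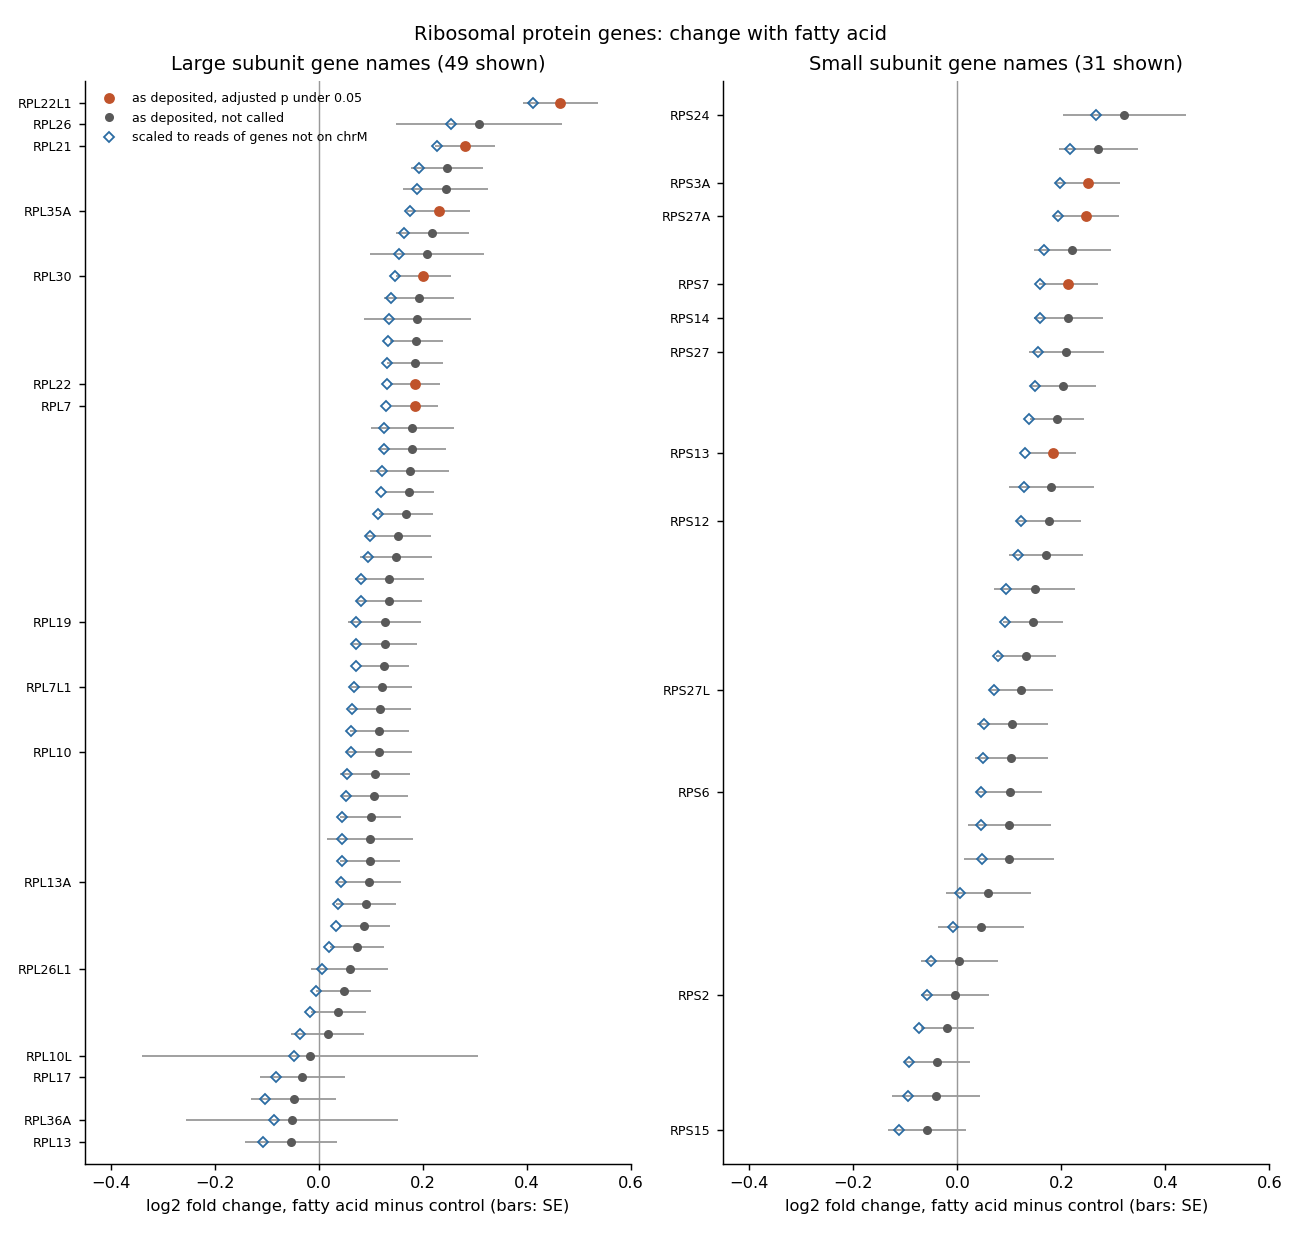
Log2 fold change (fatty acid minus control) of 80 tested ribosomal protein genes by subunit name, with labels for those described in the text, filled points and SE bars for the values as deposited and open diamonds for the non-mitochondrial scale. Of these, 10 called members are coloured, the points run from -0.06 for RPS15 to 0.46 for RPL22L1, and the diamonds lie left of the filled points throughout.

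RPL22L1, the paralogue of the RNA-binding large subunit protein RPL22, changed most (ENSG00000163584.17, chr3:170864875-170870483). Its FPKM was 31.1, 30.8 and 29.2 in the fatty acid libraries, against 19.95, 22.0 and 23.8 in the control libraries. The groups did not overlap, and the 3 fatty acid libraries lay closer together than the 3 control libraries. The log2 fold change was 0.46 ± 0.07 (limma adjusted p = 0.00911), and 0.41 on the non-mitochondrial scale (limma adjusted p = 0.0194). It rested on 2717 reads in the fatty acid group and 1395 in the control group, and the annotation holds 0 pseudogenes of its name. RPL22L1 was called under 16 of 19 alternatives, with limma adjusted p from 0.000717 to 0.177. The call was lost when fatty acid replicate 1 (0.0554) or 2 (0.0525) was left out, and with no minimum level (0.177).

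The other 10 called members showed smaller changes, with log2 fold changes from 0.18 to 0.28, and 8 of them had means over 100 FPKM. RPL21, a large subunit protein, rose to 123.0, 130.9 and 126.2 FPKM with fatty acid, against 100.5, 100.7 and 111.5 FPKM in control (log2 fold change 0.28 ± 0.06, limma adjusted p = 0.0230). RPS3A, a small subunit protein near the message exit, was at 161, 174 and 156 FPKM with fatty acid and 129, 141 and 142 FPKM in control (0.25 ± 0.06, limma adjusted p = 0.0396). RPS27A, which is made as a fusion of ubiquitin with a small subunit protein, was at 115, 126 and 119 FPKM with fatty acid and 93.9, 104 and 105 FPKM in control (0.25 ± 0.06, limma adjusted p = 0.0412). In all 3 genes the lowest fatty acid library was above the highest control library. RPL35A, a large subunit protein mutated in some patients with Diamond-Blackfan anaemia, was at 114, 118 and 114 FPKM with fatty acid and 91.6, 98.5 and 105.5 FPKM in control (0.23 ± 0.06, limma adjusted p = 0.0474). RPS7, a small subunit protein that can bind MDM2, was at 62.2, 68.5 and 62.7 FPKM with fatty acid and 53.4, 55.9 and 57.1 FPKM in control (0.21 ± 0.06, limma adjusted p = 0.0488). RPL30, in the large subunit, was at 131, 143 and 131 FPKM with fatty acid and 115, 117 and 120.0 FPKM in control (0.20 ± 0.05, limma adjusted p = 0.0485). These 3 genes also had no overlap between groups, and in RPS7 and RPL30 fatty acid replicate 2 stood above the other two.

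RPL22, RPS13 and RPL7 had small changes and tight replicates. RPL22 was at 31.9, 30.9 and 30.8 FPKM with fatty acid and 28.1, 26.9 and 27.2 FPKM in control (0.19 ± 0.05, limma adjusted p = 0.0470). RPS13, in the small subunit, was at 119.7, 119.5 and 119.0 FPKM with fatty acid and 102.8, 104.3 and 108.0 FPKM in control (0.18 ± 0.04, limma adjusted p = 0.0363). RPL7, in the large subunit, was at 231, 238 and 228 FPKM with fatty acid and 203, 207 and 203 FPKM in control (0.18 ± 0.04, limma adjusted p = 0.0365). None of the 10 was called on the non-mitochondrial scale, and each was called under 5 to 8 of the 19 alternatives. RPL7, RPL21 and RPS3A have 61, 59 and 35 pseudogenes in the annotation, whose reads came to 2.54%, 0.983% and 3.14% of the reads of the parent gene. With a correction for GC content, made after seeing the data, the log2 fold changes of RPL7, RPL22 and RPS13 were 0.020, 0.029 and 0.052 (limma adjusted p = 0.793, 0.751 and 0.471). That of RPL21 was then 0.12 (limma adjusted p = 0.166), and none of the 10 was called. Among members, this correction reversed the relation of fold change to GC content (Spearman rho 0.30, against -0.56 as deposited). Corrected values of members with a low GC content may therefore be too low. RPS13 overlaps PIK3C2A on the same strand, and whether and how reads of the overlap were counted is not given.

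**Figure D2:**
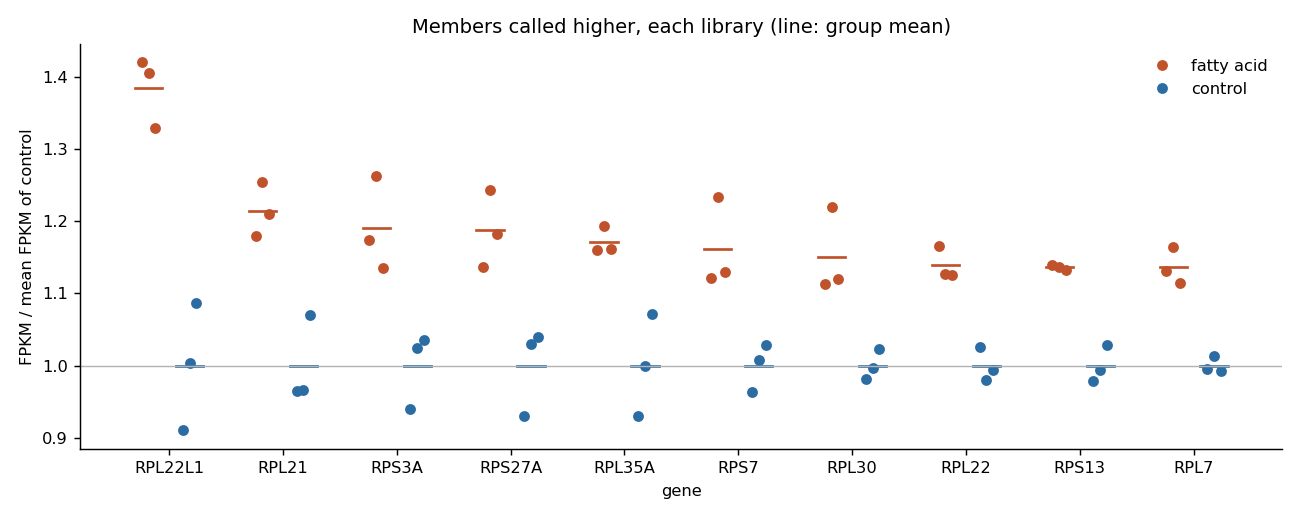
FPKM of 10 called members in each library, divided by the mean of the 3 control libraries, with group means as lines. RPL22L1 stands furthest from 1, and in all 10 genes every fatty acid point lies above every control point.

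Among the other members with large or negative fold changes, those described next had wide replicates and were not called. RPS24, a small subunit protein mutated in Diamond-Blackfan anaemia, was at 100.5, 111.5 and 116.3 FPKM with fatty acid and 72.3, 93.7 and 98.4 FPKM in control (log2 fold change 0.32 ± 0.12, limma adjusted p = 0.114). RPL26, a large subunit protein, was at 55.4, 68.9 and 73.8 FPKM with fatty acid and 42.7, 53.5 and 64.6 FPKM in control (0.31 ± 0.16, limma adjusted p = 0.234). Control replicate 1 was the lowest library for both genes, and the groups overlapped for RPL26 and not for RPS24. At the other end, RPS15, a small subunit protein, was at 126.7, 136.1 and 122.9 FPKM with fatty acid and 143.0, 138.3 and 121.0 FPKM in control (-0.06 ± 0.07, limma adjusted p = 0.634). RPL13, of the large subunit, was at 135, 139 and 132 FPKM with fatty acid and 160.1, 139 and 124.5 FPKM in control (-0.05 ± 0.09, limma adjusted p = 0.722). For RPS15 and RPL13 the control libraries spanned the fatty acid libraries, with control replicate 1 the highest. RPL36A, at 0.937 ± 0.314 FPKM with fatty acid and 0.982 ± 0.244 FPKM in control (-0.05 ± 0.20, limma adjusted p = 0.889), rested on 151 and 105 reads.

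None of the 6 most abundant members was called. RPS12, a small subunit protein, averaged 537 ± 27.7 FPKM with fatty acid and 475 ± 22.7 FPKM in control (log2 fold change 0.18 ± 0.06, limma adjusted p = 0.0983), and RPS27 averaged 501 ± 17.0 and 434 ± 37.9 FPKM (0.21 ± 0.07, limma adjusted p = 0.0978). RPL13A averaged 681 ± 39.4 FPKM with fatty acid and 636 ± 24.9 FPKM in control (0.10 ± 0.06, limma adjusted p = 0.324), and RPS6 averaged 470.2 ± 17.5 and 439 ± 28.7 FPKM (0.10 ± 0.06, limma adjusted p = 0.314). RPS2, of the small subunit, averaged 573 ± 7.76 FPKM with fatty acid and 576 ± 45.4 FPKM in control (-0.0045 ± 0.066, limma adjusted p = 0.973). RPL19, a large subunit protein often used as a reference transcript, averaged 457 ± 12.7 FPKM with fatty acid and 419 ± 37.6 FPKM in control (0.13 ± 0.07, limma adjusted p = 0.265).

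Large and small subunit genes had close median fold changes. Of 50 tested large subunit members, 6 were called higher (12%) and 44 (88%) had a log2 fold change above 0, with a median of 0.13. Of 32 tested small subunit members, 5 were called higher (15.6%) and 27 (84.4%) were above 0, with a median of 0.15. Over all genes tested, 8.22% were called higher, 57.2% were above 0 and the median was 0.044. Groups did not overlap in 22 large and 16 small subunit members, 44% and 50% of those tested, all of them with fatty acid higher, against 23.7% of all genes. On the non-mitochondrial scale the medians were 0.072 and 0.093, with 1 and 0 called higher. Over all genes tested, the median on that scale was -0.0028 and 4.82% were called higher. Per library, the mean log2(FPKM + 0.5) of large subunit genes minus that of small subunit genes was -0.44, -0.44 and -0.41 with fatty acid and -0.43, -0.43 and -0.43 in control. The group means were -0.43 ± 0.02 and -0.43 ± 0.003, a difference of -0.0016, smaller than the spread between fatty acid libraries. Reads of large subunit genes were 1.638 ± 0.0009 times those of small subunit genes with fatty acid and 1.649 ± 0.009 times in control. This ratio ran from 1.6368 to 1.6385 with fatty acid and from 1.6401 to 1.6579 in control, so the groups did not overlap. The difference of its means was small, at -0.011, and was not tested. With the median over members in place of the mean log2(FPKM + 0.5), the difference between groups was 0.075, within the spread of the control libraries (SD 0.095).

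The 86 genes together took a slightly larger share of the reads with fatty acid. Their share of all reads assigned to genes was 4.04%, 4.29% and 4.04% in the fatty acid libraries, against 3.79%, 3.85% and 3.67% in the control libraries. The groups did not overlap, with means of 4.12 ± 0.143% and 3.77 ± 0.0908% and a difference of 0.353 percentage points. As a share of reads of genes not on chrM, the values were 4.49%, 4.72% and 4.59% with fatty acid and 4.31%, 4.46% and 4.32% in control. These did not overlap either, but the gap between the lowest fatty acid and the highest control library was small, and the difference of the means was 0.232 percentage points. Mitochondrially encoded reads came to 10.3 ± 1.43% of all reads with fatty acid, against 13.6 ± 1.37% in control, and the second base leaves them out. Of 33 tested mitochondrially encoded genes, 4 were called lower as deposited (MT-ATP6, MT-ND4, MT-ND4L and MT-ND5) and 1 higher (MT-TN, on few reads), against 4.68% and 8.22% of all genes. Reads of the 1021 annotated ribosomal protein pseudogenes came to 1.32 ± 0.0711% of the members' reads with fatty acid and 1.39 ± 0.0343% in control.

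**Figure D3:**
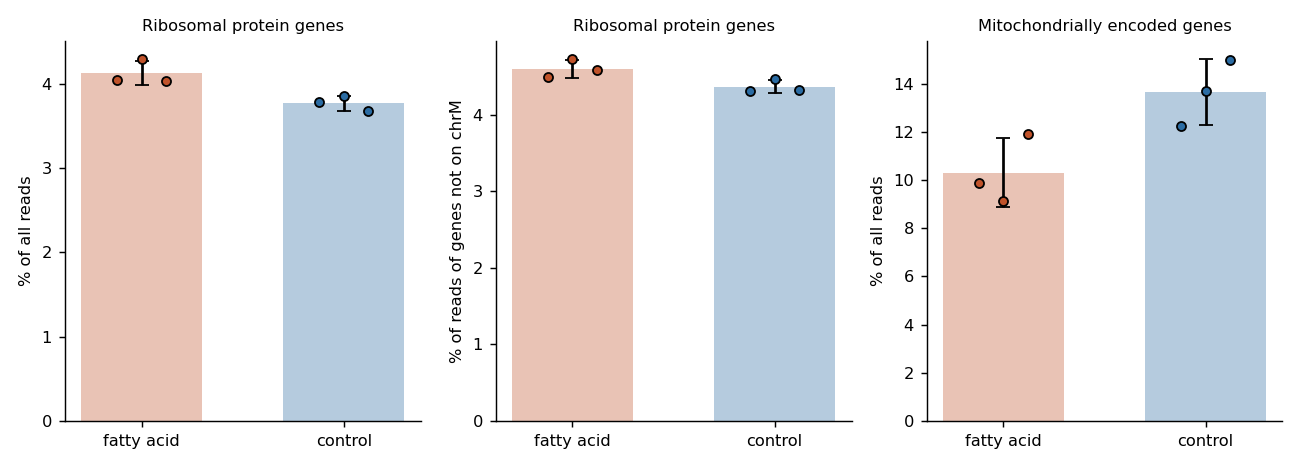
Reads of the 86 ribosomal protein genes as a percentage of all reads (left) and of reads of genes not on chrM (middle), and mitochondrially encoded reads as a percentage of all reads (right), with points for libraries, bars for means and error bars for SD (n = 3). The ribosomal share averages 4.12% with fatty acid and 3.77% in control, and 4.60% and 4.37% after mitochondrial reads are left out.

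Among the paralogue pairs, the ratio of RPL22L1 to RPL22 was higher in every fatty acid library than in any control library, though 3 libraries against 3 cannot reach an exact permutation p under 0.1. RPL22L1 stood at 97.5%, 99.9% and 94.6% of the FPKM of RPL22 with fatty acid, against 71.0%, 81.9% and 87.5% in control. The log2 ratio averaged -0.04 ± 0.04 with fatty acid and -0.32 ± 0.15 in control, a difference of 0.28 with no overlap (two-sided exact permutation p = 0.1, 0.333 after adjustment over 5 pairs). For each gene FPKM depends on its listed length, so the ratio itself is not a ratio of molecules, but its difference between groups does not depend on length. RPL26L1 stood at 28.7%, 22.6% and 25.1% of RPL26 with fatty acid and 36.8%, 29.7% and 25.1% in control. The log2 ratio differed by -0.25 (two-sided exact permutation p = 0.2, adjusted 0.333), with RPL26L1 itself at 16.7 ± 1.63 and 15.9 ± 0.250 FPKM (log2 fold change 0.06 ± 0.07, limma adjusted p = 0.628). RPS27L, the paralogue of RPS27, stood at 3.32%, 3.15% and 3.23% of RPS27 with fatty acid and 3.56%, 3.16% and 3.57% in control. Its log2 ratio differed by -0.09 (two-sided exact permutation p = 0.3, adjusted 0.375), and its own level was 16.2 ± 0.315 FPKM with fatty acid and 14.8 ± 0.941 FPKM in control (0.12 ± 0.06, limma adjusted p = 0.227). The groups overlapped for RPL26L1 and RPS27L. RPL26 is 1 of 8 tested members that share positions with another protein-coding gene on the same strand, here RP11-849F2.7. Whether and how reads of the shared positions were counted is not given.

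The remaining pairs showed small or poorly measured differences. RPL7L1, a paralogue of RPL7 known from ribosome assembly, stood at 6.91%, 6.58% and 6.65% of RPL7 with fatty acid and 7.28%, 7.04% and 6.69% in control. The log2 ratio differed by -0.06 (two-sided exact permutation p = 0.2, adjusted 0.333), with RPL7L1 at 15.6 ± 0.428 and 14.3 ± 0.648 FPKM (0.12 ± 0.06, limma adjusted p = 0.205). RPL10L, an intronless copy of RPL10, was at 0.442, 0.943 and 0.927 FPKM with fatty acid and 1.51, 0.389 and 0.625 FPKM in control, on 26 and 19 reads. Its log2 ratio to RPL10 differed by -0.13 (two-sided exact permutation p = 0.8), a difference whose sign changed when control replicate 1 (0.15) or fatty acid replicate 1 (0.05) was left out. RPL10 averaged 81.4 ± 2.42 FPKM with fatty acid and 75.2 ± 5.40 FPKM in control (0.12 ± 0.06, limma adjusted p = 0.251). The coding sequences of the pairs are 59.3% (RPL7L1), 68.6% (RPL22L1), 78.0% (RPS27L), 84.2% (RPL26L1) and 89.3% (RPL10L) identical to those of their partners in GENCODE v29. The longest identical stretch was 17 bases for RPL22L1 and 50 bases for RPL10L, so reads of RPL10L and RPL10 are the harder to tell apart. No ratio is given for RPL3L, RPL39L, RPS4Y1 and RPS4Y2, which had means under 0.5 FPKM.

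**Figure D4:**
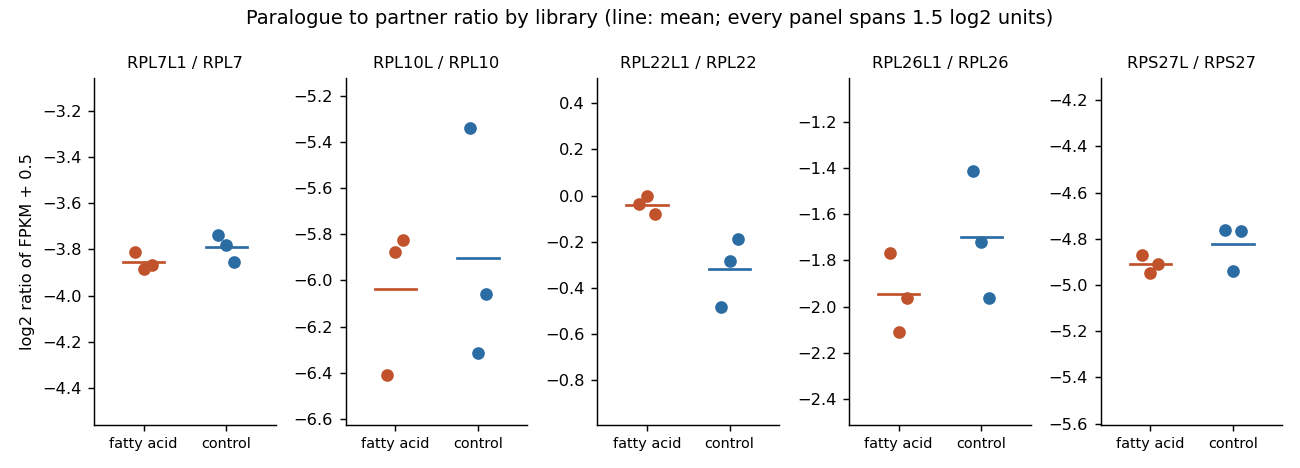
Log2 ratio of the FPKM + 0.5 of each paralogue to its partner in each library, with group means as lines and panels that span the same range. RPL22L1 to RPL22 is the one panel without overlap, with means of -0.04 with fatty acid and -0.32 in control.

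A tract at the listed start went with little difference in fold change between members. Only a run that begins at the listed start was counted, and in RPL9, for example, a run of pyrimidines lies a few bases downstream. Members without a tract may thus include genes with such a run nearby, so the comparison cannot show whether the tract matters. Of 47 tested members with a tract, 7 were called higher (14.9%) and the median log2 fold change was 0.15. Of 20 tested members with listed starts and no tract, 1 was called higher, RPS7, and the median was 0.12. The other 15 tested members, which had no listed start, included 3 called higher with a median of 0.17. Over all genes tested the share called higher was 8.22% and the median 0.044. On the non-mitochondrial scale the 3 medians were 0.09, 0.07 and 0.12. RPL22L1 and RPL13, from opposite ends of the order of fold changes, both had a tract of 6 bases.

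Base composition went along with the size of the change. Members with a lower GC content in their coding sequence had larger log2 fold changes, with a Spearman rho of -0.56 over 82 members that share the same 6 libraries. Over 11953 protein-coding genes the rho was -0.49, so the relation is not limited to ribosomal proteins. Of the 27 members with the lowest GC content (39.9% to 47.7%), 10 were called higher with a median log2 fold change of 0.18. Among all coding genes in that range 16.8% were called higher, and their median was 0.16. Of the 28 members in the middle, 1 was called and the median was 0.18, against 10.2% and 0.08 for coding genes in the same range. Of the 27 members with the highest GC content (53.7% to 63.0%), 0 were called and the median was 0.10, against 3.63% and -0.04. In each GC range the members' median lay above that of coding genes, by least in the lowest range, and these differences were not tested.

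GC content also went with the spread between libraries of a group. The deviation of members from their group mean had a Spearman rho with GC content of -0.06 to 0.06 in the fatty acid libraries, and of 0.52, -0.19 and -0.49 in control replicates 1, 2 and 3. Over the 11953 protein-coding genes both groups spread along GC content, with rho values of 0.00014, -0.29 and 0.30 in fatty acid replicates 1, 2 and 3 and 0.55, -0.41 and -0.25 in control replicates 1, 2 and 3. With a smooth correction for GC content in every library, a choice made after seeing the data, 2 members were called higher, RPL22L1 and RPS14, and 0 lower, against 7.32% and 8.68% of 11953 coding genes, and the members' median was 0.081. RPL22L1 then had a log2 fold change of 0.27 (limma adjusted p = 0.00758), against 0.46 as deposited. RPS14, a small subunit protein lost in the 5q deletion of myelodysplastic syndrome, had 0.22 (limma adjusted p = 0.0378), against 0.21 ± 0.07 (limma adjusted p = 0.0739) as deposited. After the correction, fold change rose with GC content among members (Spearman rho 0.30, against -0.56 as deposited). Over the protein-coding genes rho was then -0.0043, so the correction removed the relation there but reversed it among members. Whether the relation as deposited comes from the libraries or the cells was not tested.

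**Figure D5:**
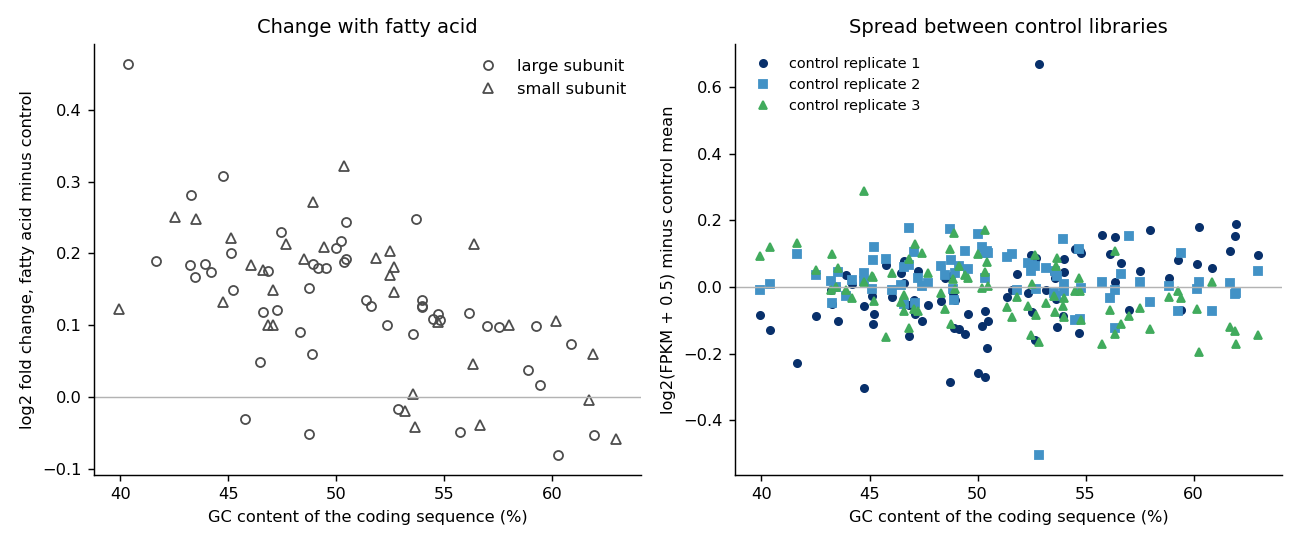
Left, log2 fold change (fatty acid minus control) of the 82 tested members against the GC content of their coding sequence (%), by subunit. Right, deviation of each control library from the control mean, log2(FPKM + 0.5), for the same genes, where control replicate 1 slopes up (rho 0.52) and control replicate 3 slopes down (rho -0.49).

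Ribosomal proteins whose symbols fall outside the naming rule, and the protein factors of translation, were listed separately. The first list held 4 genes, among them FAU, which fuses a ubiquitin-like protein to a ribosomal protein, RPL36AL, a copy of RPL36A, and RACK1, a scaffold on the small subunit, and 0 of the 4 were called. RPL36AL averaged 159.6 ± 6.89 FPKM with fatty acid and 142 ± 7.23 FPKM in control (log2 fold change 0.17 ± 0.06, limma adjusted p = 0.0943), and RACK1 averaged 126 ± 1.44 and 120.4 ± 8.74 FPKM (0.07 ± 0.06, limma adjusted p = 0.488). Of 16 tested genes for translation factors and other messages with terminal pyrimidine tracts, 7 were called higher (43.8%, against 8.22% of all genes) and 0 lower. The median of the 16 was 0.21. On the non-mitochondrial scale their median was 0.16 and 4 were called higher, against 4.82% of all genes. The elongation factor genes EEF1A1 (0.21, limma adjusted p = 0.0763), EEF1B2 (0.21, limma adjusted p = 0.0656), EEF2 (0.07, limma adjusted p = 0.567) and EEF1D (0.0027, limma adjusted p = 0.987) were not called. EEF1G, listed at 0 throughout, was not tested, and these values cannot tell a lack of expression from a lack of counted reads. NPM1, a nucleolar chaperone of ribosome assembly, rose to 180.4 ± 10.3 FPKM with fatty acid, against 133 ± 8.45 FPKM in control (0.44 ± 0.07, limma adjusted p = 0.00843). PABPC1, the cytoplasmic poly(A)-binding protein, rose to 218 ± 5.67 FPKM, against 179.8 ± 6.60 FPKM in control (0.28 ± 0.05, limma adjusted p = 0.0146). The initiation factor genes EIF3E (0.27 ± 0.05, limma adjusted p = 0.0129) and EIF4B (0.27 ± 0.05, limma adjusted p = 0.0159) rose by a like amount. These 4 genes had no overlap between groups.

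Ribosome biogenesis genes gave 8 calls higher and 0 lower among 36 tested (22.2%, against 8.22% higher among all genes), with a median log2 fold change of 0.13. On the non-mitochondrial scale 2 of the 36 were called higher, against 4.82% of all genes. RRN3, which recruits RNA polymerase I to ribosomal DNA, was at 15.4, 14.4 and 13.5 FPKM with fatty acid and 10.1, 10.5 and 11.1 FPKM in control (0.44 ± 0.07, limma adjusted p = 0.00944). NOP58, a core protein of box C/D small nucleolar particles, was at 20.8, 22.2 and 21.0 FPKM with fatty acid and 15.8, 17.6 and 16.3 FPKM in control (0.36 ± 0.06, limma adjusted p = 0.0121). Both genes were also called on the non-mitochondrial scale. NCL, the nucleolar protein nucleolin (0.37 ± 0.08, limma adjusted p = 0.0261), and GAR1, of the box H/ACA particles (0.55 ± 0.13, limma adjusted p = 0.0327), were called as deposited only. Of 10 tested host genes of small nucleolar RNAs, 1 was called higher (10%, near the 8.22% of all genes), SNHG5 (0.39 ± 0.08, limma adjusted p = 0.0265). The median of the 10 was 0.06.

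Genes of translational control by mTORC1 gave 3 calls higher and 0 lower among 19 tested (15.8%, against 8.22% higher among all genes), with a median of 0.12. They were DDIT4, an mTORC1 inhibitor induced by stress (0.31 ± 0.06, limma adjusted p = 0.0194), LARP4, a poly(A)-binding protein (0.33 ± 0.08, limma adjusted p = 0.0431), and MYC, a transcription factor that drives ribosome production (0.21 ± 0.05, limma adjusted p = 0.0472). DDIT4 restrains and MYC promotes ribosome production, and on the non-mitochondrial scale the calls were DDIT4 higher and DEPTOR, another mTORC1 inhibitor, lower (-0.27, limma adjusted p = 0.0343, against -0.22 and 0.0573 as deposited). Over all genes 4.82% were called higher and 5.65% lower on that scale. By contrast, genes of the mitochondrial ribosome, which are also nuclear, had a median log2 fold change of 0.01 over 77 tested. Of these, 2 were called higher (2.60%, against 8.22% of all genes), MRPL3 and MRPL32. MRPL3 was at 42.6, 41.3 and 41.5 FPKM with fatty acid and 29.5, 34.3 and 33.9 FPKM in control (0.36 ± 0.07, limma adjusted p = 0.0169). MRPL32 averaged 15.5 ± 0.455 FPKM with fatty acid and 13.3 ± 0.291 FPKM in control (0.21 ± 0.05, limma adjusted p = 0.0419). On the non-mitochondrial scale the mitochondrial ribosomal median was -0.04, with 1 call higher and 1 lower. Whether the cytosolic and mitochondrial medians differ was not tested.

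Hepatocyte markers were expressed in both groups and moved with the treatment. Of 12 tested, 8 were called lower and 3 higher, against 4.68% and 8.22% of all genes. The summed level of the 12 was 14139.9 to 14637.5 FPKM with fatty acid and 18296 to 18827 FPKM in control. TF fell to 89.1 ± 3.39 FPKM, against 184.7 ± 6.24 FPKM in control (limma adjusted p = 8.74e-05), and APOC3 fell to 319 ± 11.8 FPKM, against 816 ± 118 FPKM in control (limma adjusted p = 0.000332). FGB rose to 1937 ± 53.0 FPKM, against 1185 ± 114 FPKM in control (limma adjusted p = 0.00194), and HP rose to 1555 ± 42.7 FPKM, against 1190 ± 81.1 FPKM in control (limma adjusted p = 0.0118). SERPINA1, the third called higher, had 2666 ± 55.7 FPKM with fatty acid and 2212 ± 102 FPKM in control (limma adjusted p = 0.0289). ALB, which encodes albumin, fell to 7127 ± 306 FPKM, against 12025 ± 318 FPKM in control (limma adjusted p = 0.000882). Without ALB the sum was higher with fatty acid, at 7168 to 7314 FPKM, against 6308 to 6608 FPKM in control. Of 10 biliary markers 5 were tested and 1, CD24, was called lower. The summed level of the list was 424 to 439.7 FPKM with fatty acid and 443 to 517 FPKM in control, and its median log2 fold change was -0.02. Most of the sum was KRT19, at 316 ± 9.49 FPKM with fatty acid and 343 ± 36.6 FPKM in control (limma adjusted p = 0.369). KRT7 was higher with no overlap, at 1.04 ± 0.0909 FPKM with fatty acid and 0.653 ± 0.0327 FPKM in control, and was not called (0.41 ± 0.13, limma adjusted p = 0.0852). EPCAM was listed at 0 throughout. Of 8 mesenchymal markers 6 were tested and 1, LUM, was called higher, with a summed level of 109.8 to 117 FPKM with fatty acid and 92.9 to 101.9 FPKM in control. Without LUM the sum was 51.0 to 56.5 FPKM with fatty acid and 50.4 to 53.1 FPKM in control, and the median log2 fold change of the list was -0.08. COL1A1 (-0.62 ± 0.18, limma adjusted p = 0.0655) and COL3A1 (-0.30 ± 0.09, limma adjusted p = 0.0600) had lower values with no overlap and were not called. Of 8 immune and endothelial markers, CD14 alone was tested, not called, and MS4A1, CDH5 and CD3E were listed at 0, the summed level being 13.2 to 14.4 FPKM with fatty acid and 9.46 to 14.3 FPKM in control. The part of these shifts in the ribosomal protein values was not tested.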

How the data were processed

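The labels' protocols describe stranded mRNA libraries from 100 ng of RNA per sample. Alignment and counting tools in the submitters' processing notes are STAR 2.5.2 and featureCounts of Subread 1.5.1, with the build GRCh38. Whether counting used strand is not given, so antisense overlaps may not be separated. The authors deposited FPKM for 58037 genes in 6 libraries, with gene lengths per the file headers. FPKM times length gave whole reads for 100% of the values fine enough to tell (tolerance 0.02 reads), which gave the depths. Groups and replicate numbers came from the sample titles. No pair of libraries within a group agreed within sampling noise.

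From there, limma 3.58.1 in R 4.3.3 was run with an intensity trend on log2(FPKM + 0.5) of the 14661 genes averaging 0.5 FPKM or more, with Benjamini-Hochberg adjustment at 0.05. Paralogue ratios were compared by an exact permutation test in scipy 1.17.1. The comparison of fatty acid with control was also run on simulated data of 14661 genes, drawn a single time with the same assumed dispersion for every gene. Of 100 genes changed 1.5-fold 54% were called, and of 100 changed 2-fold 78%. There were 8 false calls of 140, slightly more than the threshold aims at. All tested members changed by less than 1.5-fold, so the test does not show how often changes of their size are found. Coding sequences and GC content came from GENCODE v29, and start sequences from RefSeq on GRCh38.p14.

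The members, gene lists and tests were chosen with earlier results of these data known. Named genes were all paralogue pairs, up to 12 called members per direction, the 6 highest and 6 lowest mean levels, the 4 highest and 4 lowest fold changes, and up to 4 called genes per list or the 2 with the smallest p. A few genes under this rule are counted but not described here. RPS14, MRPL3, MRPL32, the mitochondrially encoded genes, FAU, the elongation factor genes, DEPTOR, ALB, FGB, HP, SERPINA1, COL1A1, COL3A1, KRT19, KRT7 and the markers listed at 0 were named after their values were seen.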

Additional observations from a re-analysis of the deposited data

How the results depend on the processing

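The number of members called higher moved with most settings, while 0 were called lower in the planned and added alternatives. It was 11 as deposited and 11 with a pseudocount of 0.1 or 1. It fell to 1 on the non-mitochondrial scale, with the median of ratios, without the intensity trend, and with the non-mitochondrial scale and the replicate block together (1243 calls over all genes). It was 0 of 86 with no minimum level (110 calls over all genes) and 2 with the GC correction. It was 17 of 80 with a minimum of 2 FPKM (13.1% of all genes called higher), 27 with voom on recovered reads (2997 calls, with 12.6% of all genes called higher) and 38 after rescaling to TPM (3023 calls, 17.8% called higher). On the TPM scale the median over all genes was 0.18, and a fold change there is read against it. Without the trend there were 1101 calls over all genes, against 1891 as deposited. Leaving out 1 library gave 0 to 6 members called higher, and 462 to 1612 calls over all genes.

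The members' median log2 fold change was 0.13 as deposited, 0.079 on the non-mitochondrial scale, with or without the block, 0.092 with the median of ratios, 0.27 after rescaling to TPM, and 0.081 with the GC correction, with or without the block. The ribosomal share differed by 0.232 percentage points on the base without chrM, against 0.353. The difference between subunits was 0.075 with the median over members. The RPL10L to RPL10 difference of -0.13 ran from -0.34 to 0.15 with 1 library left out, and was above 0 in 2 of these settings (0.054 and 0.15).

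Same-numbered libraries had correlated deviations of 0.0122, 0.0836 and 0.0224, and 1 of the 3 fatty acid libraries correlated best with a control library of another number, so the numbers were not taken to pair the samples. With the replicate block 6 members were called higher (RPL22L1, RPL26, RPS27A, RPS24, RPL21 and RPL32), against 5.57% of all genes, and 8 with the GC correction and the block, against 7.71%.

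Among the named members, 35 of the values under alternatives had the opposite sign to the value as deposited, none of them called. After rescaling to TPM these were RPL10L 0.11, RPL13 0.084, RPL17 0.10, RPL36A 0.045, RPS15 0.078 and RPS2 0.13. With the GC correction, with or without the block, they were RPL13 0.041, RPL26L1 -0.044, RPS15 0.047, RPS2 0.086, RPS27L -0.073 and RPS6 -0.021. RPL10L was 0.0079 with a pseudocount of 0.1 and 0.025 with voom. With 1 library left out, the ranges were -0.27 to 0.32 for RPL10L, -0.14 to 0.042 for RPL13, -0.11 to 0.010 for RPL17, -0.22 to 0.053 for RPL36A, -0.064 to 0.050 for RPS2 and -0.017 to 0.11 for RPL26L1. The cause of these changes was not tested. The GC correction and the fits that join it or the non-mitochondrial scale to the block were added after seeing the data. The 8.36 to 15.94 M and 6.33 to 11.82 M reads limit genes such as RPL10L, with 26 and 19 reads.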

Other observations

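The members differed in how closely replicates agreed. RPS13 was among the tightest, at 119.4 ± 0.362 FPKM with fatty acid and 105.0 ± 2.71 FPKM in control. RPL26 was at 66.0 ± 9.54 FPKM with fatty acid and 53.6 ± 11.0 FPKM in control, and RPL41, the shortest ribosomal protein, at 231 ± 12.9 FPKM with fatty acid and 202 ± 30.2 FPKM in control (log2 fold change 0.21 ± 0.11, limma adjusted p = 0.240). RPL9 had the closest control libraries for its level, at 59.6 ± 0.0386 FPKM, with 67.1 ± 3.42 FPKM with fatty acid (0.17 ± 0.05, limma adjusted p = 0.0763). Reads of pseudogenes named after RPL9 came to 21.6% of its own reads, and for RPL23A to 13.3%. These genes were chosen after their values were seen.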
